A study of Mus musculus with 6 samples.

Results

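The genes described here are 9 members of the smooth-muscle-type contractile apparatus and the gene of the transcription factor that regulates them, Srf. They were chosen by name, with earlier results of these data known. Placed on the mouse build mm10 by the RefSeq coordinates of GRCm38, they are 10 of the 21887 protein-coding genes on a chromosome. Accessibility had been measured by ATAC-seq: a transposase cuts open DNA in the cell and tags the cut ends for sequencing. The cells were a mouse embryonic fibroblast line, named A or C2 by the submitters and immortalised with c-myc, grown in a medium with fetal calf serum. The design held 2 samples of the Ezh2 -/- line, 2 of the Ezh2 -/- line given Ezh2 back from the retroviral vector pMSCV, and 2 of the wild-type line. All 6 therefore share one parental line, and the labels do not say whether the knockout is one clone. The values below come from the single interval list of the Ezh2 -/- cells. The wild-type and rescued profiles are not analysed here, so no value tells what the loss of Ezh2 does to these genes. The list has no value per replicate and no read counts, so no replicate error, depth or test of significance can be given. Every comparison below is a description of 1 list.

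SRF, the serum response factor, binds a short DNA element called the CArG box and works with 2 kinds of partner. Myocardin and its relatives Mrtfa and Mrtfb link it to contractile and cytoskeletal genes, and the ternary complex factors Elk1, Elk3 and Elk4 link it to genes induced by serum. Acta2 encodes smooth muscle alpha actin and Myl9 a regulatory light chain of myosin. Calponins and transgelin bind actin filaments, and tropomyosins lie along the filament and set which other proteins can reach it. In fibroblasts these proteins build stress fibres, and their rise is the usual sign of a myofibroblast.

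The promoter windows of some of these genes are printed first. RefSeq gives a start and 300 bases around it, 250 before and 50 after, for 9 of the 10 genes, and none for Tagln. The CArG box was searched as 2 C, then 6 bases that are A or T, then 2 G, a pattern that reads the same on both strands. Capitals mark each match, exact or with 1 mismatch. An exact match stood in the windows of Srf, Cnn2 and Myl9, and a match with 1 mismatch in those of Acta2 and Tpm1. Cnn1 and Cnn3 are shown because they differ from Cnn2 in accessibility or in motif.
Srf, chr17:46556113-46556412, minus strand: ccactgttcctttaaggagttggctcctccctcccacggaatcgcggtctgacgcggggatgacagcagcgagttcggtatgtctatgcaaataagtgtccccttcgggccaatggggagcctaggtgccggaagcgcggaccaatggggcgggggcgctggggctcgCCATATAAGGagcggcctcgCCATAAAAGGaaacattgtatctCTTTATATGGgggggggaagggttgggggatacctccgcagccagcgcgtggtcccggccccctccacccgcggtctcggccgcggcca
Cnn2, chr10:79988350-79988649, plus strand: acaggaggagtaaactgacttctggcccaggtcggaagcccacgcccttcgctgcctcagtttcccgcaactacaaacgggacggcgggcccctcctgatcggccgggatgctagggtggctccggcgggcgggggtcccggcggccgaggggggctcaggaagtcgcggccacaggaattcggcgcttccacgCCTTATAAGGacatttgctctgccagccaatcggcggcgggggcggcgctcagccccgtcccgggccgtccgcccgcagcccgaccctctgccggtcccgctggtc
Myl9, chr2:156775214-156775513, plus strand: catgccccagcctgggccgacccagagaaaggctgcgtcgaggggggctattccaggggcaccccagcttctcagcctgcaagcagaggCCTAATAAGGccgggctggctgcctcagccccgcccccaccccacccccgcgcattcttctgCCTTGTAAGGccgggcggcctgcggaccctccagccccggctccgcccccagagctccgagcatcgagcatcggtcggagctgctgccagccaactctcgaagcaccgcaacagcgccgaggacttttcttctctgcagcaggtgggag
Acta2, chr19:34255324-34255623, minus strand: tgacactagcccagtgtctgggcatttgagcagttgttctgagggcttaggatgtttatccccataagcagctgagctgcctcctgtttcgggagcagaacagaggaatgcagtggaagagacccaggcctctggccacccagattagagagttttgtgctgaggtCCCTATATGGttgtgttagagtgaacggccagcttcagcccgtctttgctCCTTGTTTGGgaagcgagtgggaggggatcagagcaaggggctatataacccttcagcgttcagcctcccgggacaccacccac
Tpm1, chr9:67049164-67049463, minus strand: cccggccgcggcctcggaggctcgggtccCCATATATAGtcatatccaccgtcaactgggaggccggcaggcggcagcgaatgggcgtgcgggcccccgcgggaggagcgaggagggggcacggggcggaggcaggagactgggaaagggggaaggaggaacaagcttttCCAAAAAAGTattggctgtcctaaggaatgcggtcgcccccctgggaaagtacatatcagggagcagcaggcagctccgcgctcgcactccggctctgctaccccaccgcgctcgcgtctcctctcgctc
Cnn3, chr3:121426291-121426590, plus strand: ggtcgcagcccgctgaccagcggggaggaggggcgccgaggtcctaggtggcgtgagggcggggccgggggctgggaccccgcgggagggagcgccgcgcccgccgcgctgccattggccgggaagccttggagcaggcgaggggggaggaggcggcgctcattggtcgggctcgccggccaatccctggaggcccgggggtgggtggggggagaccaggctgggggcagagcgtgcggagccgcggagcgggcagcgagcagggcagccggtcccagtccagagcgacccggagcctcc
Cnn1, chr9:22099003-22099302, plus strand: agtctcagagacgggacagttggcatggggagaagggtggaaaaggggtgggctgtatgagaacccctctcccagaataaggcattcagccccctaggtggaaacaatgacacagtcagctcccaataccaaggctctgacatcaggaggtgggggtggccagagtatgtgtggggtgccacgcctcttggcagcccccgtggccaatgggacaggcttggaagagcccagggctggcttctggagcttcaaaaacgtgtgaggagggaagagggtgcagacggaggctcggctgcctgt

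Srf held exact boxes at 82 and 62 bases before its start, CCATATAAGG and CCATAAAAGG, and another with 1 mismatch at 39 bases, CTTTATATGG. Cnn2 had CCTTATAAGG at 56 bases before the start. Myl9 had CCTAATAAGG at 161 bases, with CCTTGTAAGG, 1 mismatch away from the box, at 99. In Acta2 both matches carried a G or C among the central bases, CCCTATATGG at 84 bases and CCTTGTTTGG at 34 bases before the start. Those of Tpm1, CCATATATAG at 221 bases and CCAAAAAAGT at 80 bases, each had 1 mismatch in the closing pair of G. Exact boxes thus stood in 3 of 9 windows, where 1.52% of 21263 promoter windows of protein-coding genes hold one. Allowing 1 mismatch gave 5 of 9, against 19.7% of all windows. SRF target genes are known by such boxes, so a high share among genes named for SRF is not an independent result. Over all promoter windows, starts with an exact box did not have an interval more often. One lay within 1000 bp of 39.2% of the 324 starts with an exact box and of 46.3% of those without. The starts with and without a box were not matched for CpG content, which is described below.

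An interval here is a stretch that the authors' peak caller, SEACR, listed as accessible. The total signal is the area under its coverage and the maximum signal its height, both in the authors' unit. They belong to the called region, which can appear as several intervals. Accessible chromatin lay over 8 of the 10 genes, Srf, Acta2, Myl9, Cnn2, Cnn3, Tpm1, Tpm2 and Tpm4, where 52.8% of all protein-coding genes have an interval over them. Cnn1 and Tagln had none. An interval within 1000 bp of either gene end was present at 7 of the 10, against 47.4% of all genes, and Tpm2 was the gene with an interval inside but none at an end. The same 7 had it at the listed start, of 9 with a listed start, while 46.9% of 17492 genes did. With 10 genes in 1 list, these counts describe the named genes and no wider class.

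**Figure D1:**
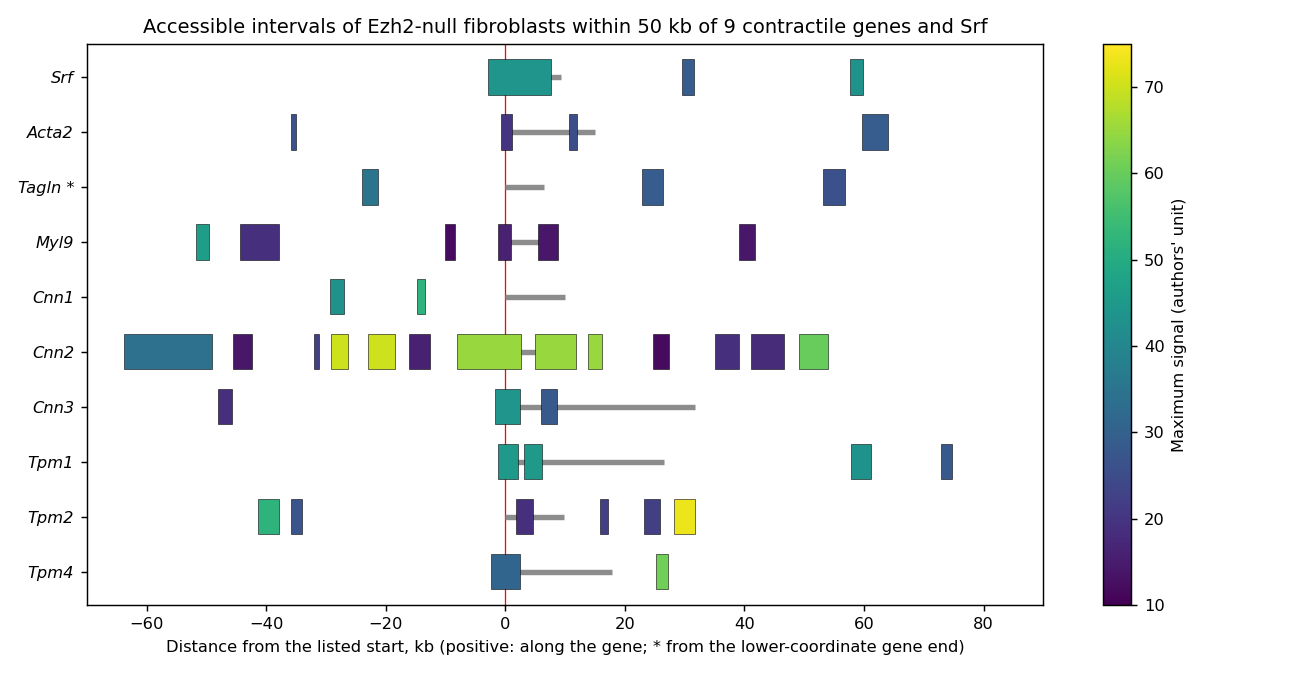
Accessible intervals (boxes, coloured by maximum signal) within 50 kb of each gene, drawn along the direction of transcription from the listed start (red line, kb), with the gene as a grey bar; Tagln is drawn from its lower-coordinate end. Cnn1 and Tagln have no box on the gene, and Cnn2 has 13 boxes in its surroundings.

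Srf was accessible over nearly its whole length. The gene spans 46546838 to 46558267 on chromosome 17, and a single interval of 10634 bp, 46548435 to 46559068, covered 86.0% of it. Where any interval lies over a gene, the median cover is 8.64% of the gene (quartiles 3.42 and 24.7%), and the interval widths have a median of 2453 bp. The total signal was 120911, higher than at 91.9% of the 10378 genes with a gene-end interval, and the maximum signal of 44 was higher than at 61.8%. The maximum lay at 1 point 75 bases before the listed start, inside the box that runs from 82 to 73 bases before the start. This listed start lies inside the gene span given above, and the maximum lay within that span, 2030 bp from its nearer end. Of all starts with an interval, 57.3% have the maximum of the called region within the 300-base window, so a placement in that window is common. A match in sequence is not a bound site. Any shift for the transposase is unknown, so the overlap of the maximum with the box is not resolved to the base.

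Acta2, on chromosome 19 from 34240336 to 34255585, had 2 separate and weak intervals. One, of 1810 bp from 34254229 to 34256038, covered the start and had a total signal of 18751 with a height of 20 at its maximum. These values exceeded those of 7.70% and 7.82% of genes with a gene-end interval. The lowest total signal in the list is 15316, so the start of Acta2 stood close to the lowest value that was called. Its highest point was not at the printed boxes but 1020 bp downstream of the start, inside the gene. The other interval, 1226 bp from 34243415 to 34244640, lay 10.7 kb downstream of the start and had 15682 in total and 25 at its maximum. It was one of the intervals that lie inside a gene and away from both ends, which 16.6% of all genes have. Exons and introns were not told apart here.

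Tagln, which encodes transgelin and is with Acta2 a classical early smooth muscle marker, had no interval over the gene, 45929628 to 45936058 on chromosome 9. The nearest stood 16.4 kb away at Sidt2, where the total signal was 37126 and the maximum 29. Further intervals lay 21.3 kb away at Rnf214 and Pcsk7 and 46.7 kb away at Pafah1b2. In the surroundings, 9 of the 15 other protein-coding genes within 500 kb had a gene-end interval. Of all protein-coding genes, 37.7% are at least as far from their nearest interval as Tagln.

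Myl9, on chromosome 2 from 156775408 to 156781657, was accessible at both ends, with low heights. The interval over the start, 2163 bp from 156774298 to 156776460, reached 20072 in total signal and 16 in height. A flat top of the coverage, 156775116 to 156775580, ran across the start itself. The interval over the other end, 156780975 to 156784347, had a larger total signal of 25731 and a maximum signal of 14, whose position lay 1970 bp beyond the gene. Of all genes, 7.65% have 2 or more gene-end intervals, and here Cnn2 was the other. By maximum signal the start of Myl9 was higher than 3.25% of genes with a gene-end interval, the lowest of the 7, although every one of the 18 other genes within 500 kb had a gene-end interval.

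**Figure D2:**
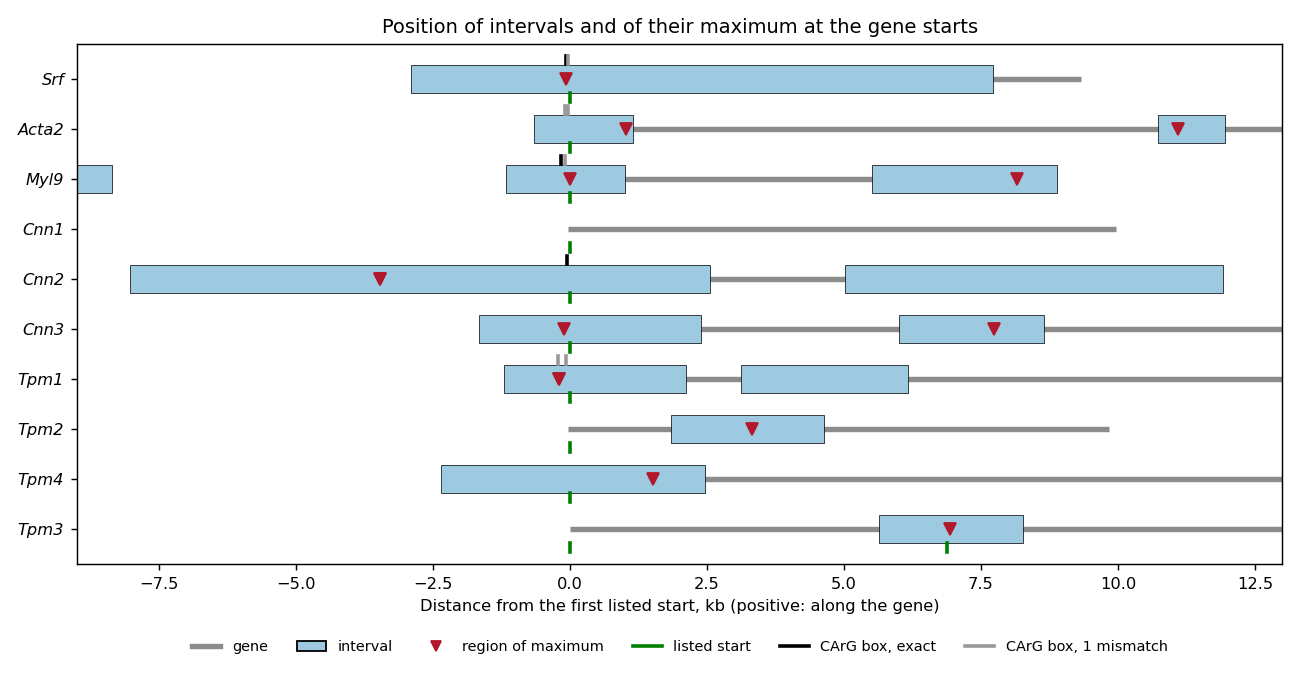
Intervals (blue boxes) and their regions of maximum (red triangles) around the first listed start, in kb along the gene; green ticks are listed starts, black and grey ticks above the boxes exact and 1-mismatch CArG boxes, and Tpm3 is added as a paralog. The maximum sits within 200 bases of the start at Srf, Myl9, Cnn3 and Tpm1, and 3.47 kb upstream at Cnn2.

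Of the 3 calponin genes, Cnn2 and Cnn3 had an interval over the start and Cnn1 had none. Cnn1 encodes the smooth muscle calponin, and Cnn2 and Cnn3 encode forms made in many cell types. Cnn1, on chromosome 9 from 22099221 to 22109221, had no interval, and the nearest lay 13.4 kb from it, at Ecsit, where the total signal was 19686 and the maximum 52. Of all protein-coding genes, 38.9% are at least as far from their nearest interval. Cnn3, on chromosome 3 from 121426541 to 121458205, had an interval of 4059 bp over its start. Its total signal of 59285 and its maximum signal of 44 were above those of 71.1% and 61.8% of genes that have a gene-end interval. The maximum lay 111 bases before the start, in the printed window. A second interval of Cnn3, 2640 bp from 121432550 to 121435189, lay 6009 bp downstream of the start, and had 18309 in total and 28 at its maximum.

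Cnn2, on chromosome 10 from 79988600 to 79995400, had the highest total signal of the 10 genes, but the value cannot be assigned to Cnn2 alone. The total of 297117 and the maximum of 65, above those of 99.3% and 92.1% of genes that have a gene-end interval, belong to 1 called region listed as 3 intervals. The first piece, 10595 bp from 79980564 to 79991158, covered the start, the second, 6893 bp, covered the other end and reached into Abca7, and the third lay 7.10 kb beyond the gene. The maximum stood at 79985129 to 79985133, 3467 bp upstream of the start of Cnn2 and 804 bp from the nearer end of Tmem259. The height over the start of Cnn2 itself is not in the list. Cnn2 lay among accessible neighbours, with 57 of the 60 other genes within 500 kb having a gene-end interval. It had 13 intervals within 50 kb, and 1.96% of all genes have at least as many.

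The calponin relatives transgelin 2 and transgelin 3 stood on either side as well. Tagln2 was covered over its whole length by an interval of 8655 bp, which had a total signal of 68231 and a height of 24 at its maximum, 281 bases before the start. That interval also reached an end of the neighbouring Igsf9. Tagln3, known from neurons, had none over the gene, and the nearest lay 17.4 kb away. Of these 6 calponin and transgelin genes, Cnn2, Cnn3 and Tagln2 had a gene-end interval and Cnn1, Tagln and Tagln3 had none. That share, 50%, is near the 47.4% of all genes.

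All 4 tropomyosin genes had an interval over the gene, in different places. Tpm1 and Tpm3 are known to have alternative promoters, of which the internal one gives short cytoplasmic forms. At Tpm1, on chromosome 9 from 67022590 to 67049672, a called region of total signal 73831 and maximum signal 45 was listed as 2 intervals. One, of 3323 bp, covered the start, and its highest point, 195 bases upstream, lay within the printed window. The other, 3040 bp from 67043055 to 67046094, began 3119 bp downstream of the start, inside the gene. Tpm4, on chromosome 8 from 72135288 to 72153142, had an interval of 4813 bp over the start with a total signal of 70730. Its maximum, 31, lay 1505 bp downstream of the start. By total signal Tpm1 and Tpm4 were alike, above 80.0% and 78.5% of genes that have one, and by maximum signal Tpm1 stood above 64.3% and Tpm4 above 29.1%.

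Tpm2, on chromosome 4 from 43513726 to 43523583, differed from both. Its interval of 2802 bp, 43518911 to 43521712, began 1842 bp downstream of the listed start and lay inside the gene, where the total signal was 37368 and the maximum 19. Tpm3, not among the 10, has 2 listed starts 6870 bp apart on chromosome 3. Its interval of 2613 bp, which had a total signal of 50952 and a maximum signal of 49, covered the downstream start, and its highest point was 66 bases from it. No interval lay within 1000 bp of the upstream start. Of the 2761 genes with several listed starts, 21.6% have an interval at some of them but not at all. The upstream and downstream windows of Tpm3 also differed in CpG content, with ratios of 0.148 and 0.651 of observed over expected CpG.

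**Figure D3:**
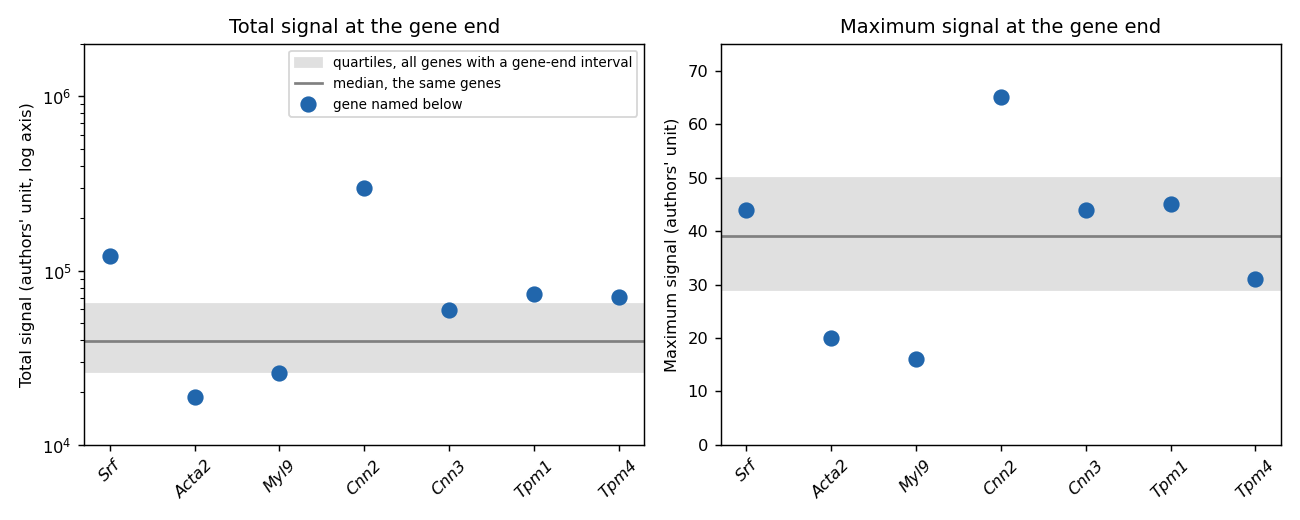
Total signal (left, log axis) and maximum signal (right) at the gene end of the 7 genes with an interval there, against the quartiles (grey band) and the median (line) of all 10378 such genes; for Myl9 the total is that of the far end and the maximum that of the start. Cnn2 lies far above the band in both, and Acta2 and Myl9 lie below it in both.

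The 7 genes with a gene-end interval had a median total signal of 70730 and a median maximum of 44. Over all 10378 genes with one, the medians are 39334.5 and 39. The order by total signal was Cnn2, Srf, Tpm1, Tpm4, Cnn3, Myl9 and Acta2, and by maximum signal Cnn2, Tpm1, Srf and Cnn3 at the same value, Tpm4, Acta2 and Myl9. No error is known for these values, so neighbours in this order, such as Tpm1 and Tpm4 in total signal, cannot be called different. The median over 7 genes rests on genes that passed the peak caller and says nothing of Cnn1, Tagln and Tpm2.

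CpG content went with accessibility across all promoters and set the 9 windows in context. CpG-rich promoters are known to lie in open chromatin in most cell types. The share of starts with an interval was 8.54% at CpG ratios under 0.2, 17.9% from 0.2 to 0.4 and 41.2% from 0.4 to 0.6. It was 66.4% from 0.6 to 0.8, 79.9% from 0.8 to 1 and 85.1% above. Cnn2 (0.881), Srf (0.837), Tpm1 (0.823), Cnn3 (0.762) and Tpm4 (0.719) had high ratios and an interval at the start. Myl9 (0.583), with an interval at the start, and Tpm2 (0.546), with none there, lay near the median ratio of 0.567. The 2 lowest were Acta2 (0.270), which had one, and Cnn1 (0.239), which had none. Both fall in the class where 17.9% of starts have an interval. The part of CpG content in the differences between these genes was not tested.

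**Figure D4:**
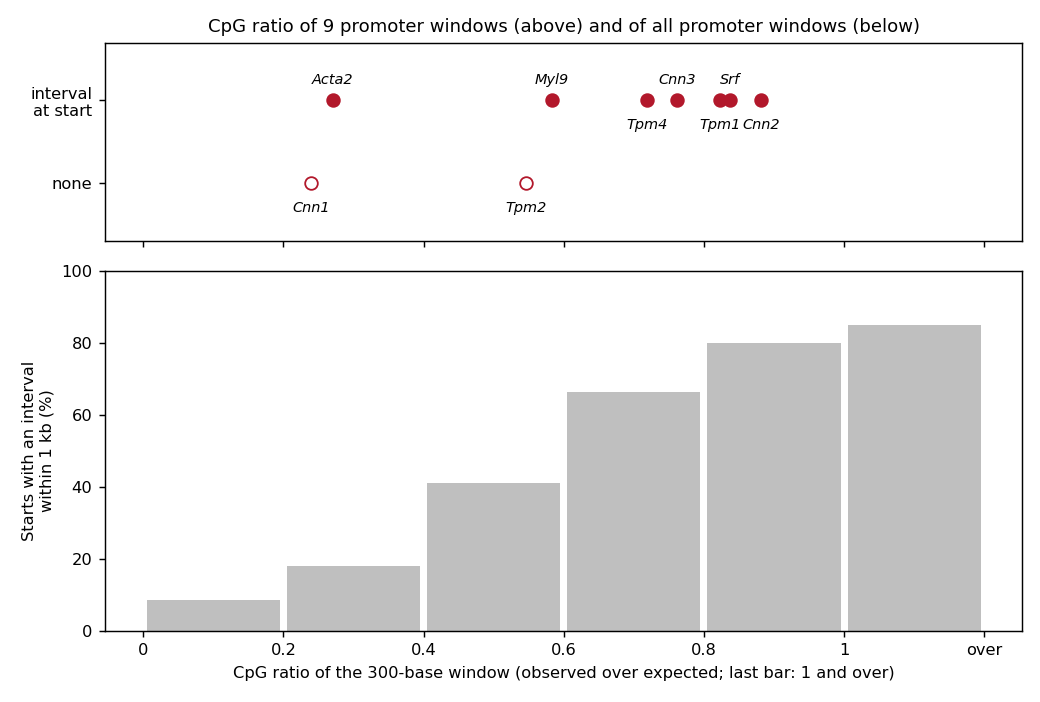
CpG ratio of the 300-base windows of the 9 genes with a listed start (upper panel; filled, with an interval at the start; open, without), above the share of all 21263 promoter windows with an interval within 1 kb in each CpG class (bars, %). The bars climb with the ratio to 85.1%, and Acta2 and Cnn1 share a class whose bar is at 17.9%.

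In all, 46 intervals lay within 50 kb of the 10 genes, 13 of them over a gene and 33 outside. Of the 33, 28 touched another protein-coding gene and 5 touched none. Each of the 10 had at least 2 intervals within this distance, where 55.3% of all genes have at least 2 and 71.0% at least 1. After Cnn2 came Myl9 and Tpm2 with 6 each, Acta2 and Tpm1 with 4, and Tagln, Cnn3 and Srf with 3. Tpm4 and Cnn1 had 2 each. The interval nearest to Acta2 outside the gene lay 34.8 kb away, over an end of Fas. Within 500 kb, the share of other genes with a gene-end interval was 100% around Myl9, 95% around Cnn2, 87.5% around Tpm1, 80.6% around Srf and 55.2% around Tpm4. It was 37.5% (3 of 8) around Cnn3 and 33.3% (6 of 18) around Acta2, the lowest of the 7 genes with such an interval. Around the 3 without one it was 71.4% for Tpm2, 60% for Tagln and 55.2% for Cnn1, so these lay between the extremes of the 7.

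Wider lists of genes of the SRF pathway give the setting. Of 8 genes of SRF and its partners, Srf itself included, 6 had a gene-end interval, which 47.4% of all protein-coding genes have. Those with the highest total signals were Srf, Elk4 (51242) and Mrtfa (37344), and Mrtfa had a maximum of 56. Myocd, which encodes the muscle-specific partner myocardin, had none at its ends and 2 intervals inside. Fhl2, which encodes a LIM protein that binds SRF, had none at its ends and 4 inside. All 12 serum-induced SRF targets had one, led by Egr1 (219034), Junb (149889) and Fosb (142088), with a median total signal of 96750.5.

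Among 20 genes of the actin cytoskeleton, many of them SRF targets, 16 had a gene-end interval, against 47.4% of all protein-coding genes. The median total signal of the 16 was 61116.5. The highest totals were at Actb (257731), which encodes cytoplasmic beta actin, Wdr1 (202542) and Cfl1 (193514), whose products take actin filaments apart. Actg1, Filip1l, Flna and Gsn had none at their ends, but 5 intervals lay inside Gsn, 3 inside Filip1l and 1 inside Flna. For Actg1, which encodes cytoplasmic gamma actin, the nearest interval lay 8.81 kb away in the list as analysed here. Actg1 is active in nearly all cells, so a gene without an interval here, Cnn1 and Tagln included, is not shown to be closed. Of the 6 actin genes, Actb and Acta2 alone had a gene-end interval, and the total signal of Acta2, 18751, was far below that of Actb. The smooth muscle actin gene Actg2 and the striated muscle genes Acta1 and Actc1 had none.

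Other smooth muscle genes were split. Of 15, 8 had a gene-end interval, a share near the 47.4% of all protein-coding genes, with a median total signal of 27204.5. Hspb6 (144144), Pdlim7 (54705) and Smtn (48700), the last encoding smoothelin, led. Actg2, Des and Kcnmb1 were without, and so was Myh11, the smooth muscle myosin heavy chain gene, whose nearest interval lay 29.8 kb away. Of 12 myosin light chain genes, Myl9 among them, 8 had one. They were led by Myl6 and Myl6b, which share a called region (152324), and Myl12a (97950), which encodes a non-muscle regulatory light chain. The striated muscle light chain genes were split: Mylpf (47767) and Myl2 (29655) had one, and Myl1, Myl3, Myl4 and Myl7 had none. Myl4 had 2 intervals inside the gene. Of 7 tropomodulins and leiomodins, which cap or nucleate actin filaments, 4 had one, led by Tmod4 (48408), Tmod3 (21957) and Lmod1 (19135), and Lmod2, Lmod3 and Tmod1 had none.

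Genes of striated muscle were mostly without an interval at their ends, which 47.4% of all protein-coding genes have. Of 20 contractile genes of skeletal and cardiac muscle, 3 had one, Tnnt2 (97729), Tnnc1 (43340) and Tnni1 (20982), and Acta1, Actc1 and Ckm were among those without. The interval of Tnnc1 lay 523 bp outside the gene, and with a window of 500 bp the count was 2. Of 8 muscle transcription factor genes, Mef2d (93331) alone had one, and Mef2a, Mef2c and Myf5 had none at their ends. The cell type was checked against markers. Of 11 fibroblast markers 9 had a gene-end interval, led by Col1a1 (108721), Vim (85139) and Pdgfrb (65235), and Pdgfra and Thy1 had none there. Their heights were low, with a median maximum signal of 23 over the 9, against 39 over all genes with a gene-end interval. Of 12 epithelial, endothelial and blood markers 3 had one, Cd68 (108340), Cldn4 (31344) and Krt8 (16652), and Cdh1, Cdh5 and Epcam were among those without. The intervals of Cldn4 and Krt8 lay outside the genes, at 627 bp and 15 bp.

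**Figure D5:**
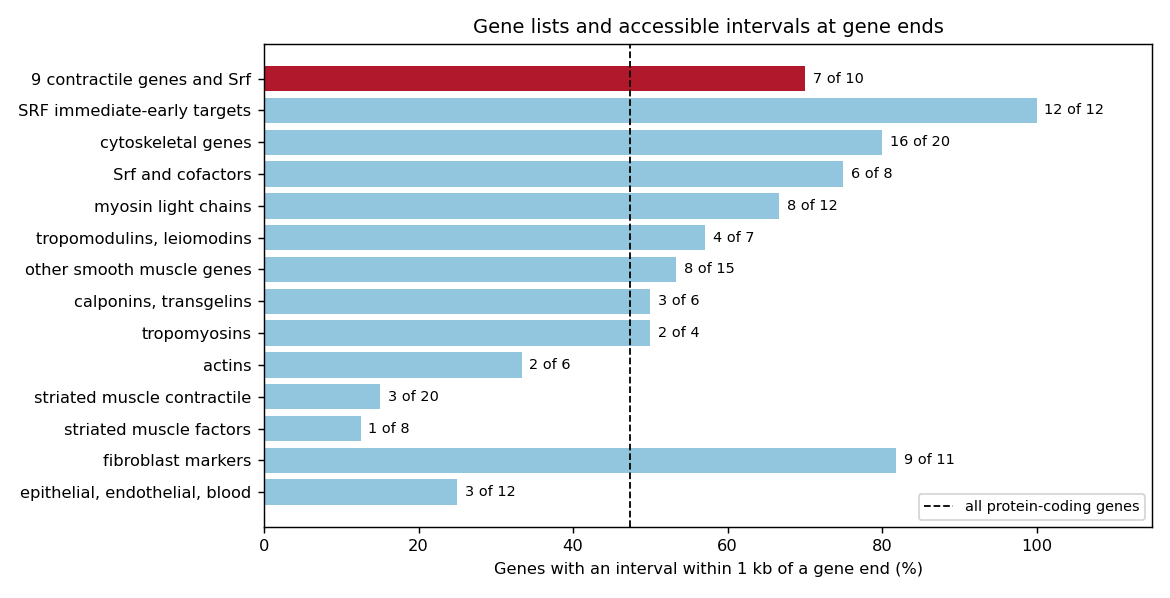
Share of genes with an interval within 1 kb of a gene end (%), for the 9 contractile genes and Srf (red) and for wider gene lists (blue), with the number of genes beside each bar; the dashed line is the share of all protein-coding genes, 47.4%. SRF immediate-early targets reach 12 of 12, and striated muscle lists have 3 of 20 and 1 of 8. The lists of Srf and cofactors, myosin light chains, calponins and transgelins, tropomyosins and actins hold some of the 9 contractile genes and Srf.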

How the data were processed

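ATAC-seq had been run on whole cells, per the labels' protocols, and samples were grouped by their genotype and treatment labels. The submitters' processing notes name Bowtie2 2.2.9, deepTools, SEACR and mm10. Calling settings, pooling of replicates, treatment of duplicates and any shift for the transposase were not given in the sources used here. Per the file itself, the deposited list has 6 columns and no header. The fourth, a score deposited by the authors, was taken for the total signal over a called region, and the fifth, as deposited, as its maximum signal. Of 19215 called regions, 2148 appear as 2 or more intervals. Depth is unknown.

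Genes came from RefSeq GRCm38.p6, and starts and promoter sequences from a RefSeq table of the same build. A gene counted where an interval overlapped its window by at least 1 bp. A percentile is the share of genes with a lower value. The CpG ratio is observed over expected CpG. The members and lists were chosen with earlier results of these data known. All 10 genes, their paralogs and, of each list, the 3 leading genes by total signal and the alphabetically first 3 lacking an interval are named. Gsn, Myh11, Mylpf, Myl2 and Myl7 were named after their values were seen. Of the list entries all matched, 2 by an older symbol. Calculations used Python 3.11.15, numpy 2.4.6, pandas 2.3.3 and matplotlib 3.10.9, and the lookup and the motif search were tested on simulated data.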

Additional observations from a re-analysis of the deposited data

How the results depend on the processing

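Of 109 alternative values, 81 stayed within 1.5 times the reported count or, for percentiles, inside a counting interval. That interval is a binomial one for the share of genes with a lower value. It does not measure the error of a gene's own signal. The counts of the 10 genes with an interval at an end, at the start or over the gene kept within 1.5 times under each alternative run. They fell when only stronger regions were kept. Above the median total signal, 29082, counts were 5 at an end against 7, 5 at the start against 7 and 6 over the gene against 8. Acta2 and Myl9 were the genes lost. Above the upper quartile the count at an end was again 5, and with windows of 2500 bp it was 8. Intervals within 25 kb of the 10 genes numbered 26, and within 100 kb 88, against 46 within 50 kb. Allowing 1 mismatch gave CArG boxes at 5 genes, against 3. With called regions above the median total signal, where 32.7% of all genes have a gene-end interval, counts were 4 for other smooth muscle genes, 3 for SRF and partners, 1 for tropomodulins and 1 for actins. Above the upper quartile, with 19.6% of all genes, they were 3, 2, 1 and 1 in the same order, 1 for striated contractile genes, 4 for myosin light chains, 5 for fibroblast markers and 1 for epithelial, endothelial and blood markers. With windows of 2500 bp, 5 striated contractile genes and 2 striated factors had one. Percentiles by maximum signal were 92.1 for Cnn2, 61.8 for Cnn3, 3.25 for Myl9, 61.8 for Srf, 64.3 for Tpm1 and 29.1 for Tpm4. By total signal among intervals that contain their maximum they were 99.6 for Cnn2, 73.9 for Cnn3, 93.7 for Srf, 82.6 for Tpm1 and 81.3 for Tpm4. No paired analysis was possible because the list has no column per sample, and leaving out a replicate was not possible for the same reason. Every absence is one in the list as analysed here, at an unknown depth and under the authors' threshold.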
